A study of Mus musculus with 12 samples.

Results

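The cytosolic ribosomal protein genes encode the proteins of the ribosome that translates nuclear mRNAs. They were taken as all gene symbols built from Rpl or Rps and a number, with an optional a or x, together with Rplp0, Rplp1, Rplp2 and Rpsa. This gave 76 genes among the 19037 in the expression table, 30 of the small subunit and 46 of the large subunit, and all 76 passed the filter on low counts. Ribosomal protein genes outside this pattern of names, such as Rack1, Fau and Rps3a1, are described apart at the end.

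RNA was measured in AML12 cells, a line derived from hepatocytes of mice transgenic for human TGF-alpha, in 4 groups of 3 libraries. The groups were cells treated with FK228 (romidepsin, an inhibitor of class I histone deacetylases, or HDACs; its libraries carry the label HDI), cells overexpressing YF mutants of class I HDACs, cells with FK228 and YF together (FK228+YF), and control cells. FK228 and control libraries are also marked with a GFP code, which stays unexplained in the labels. The sources used here give neither dose nor time, nor which HDACs were mutated. Every library comes from 1 cell line, and nothing says that the 3 libraries of a group were separate cultures. A p-value therefore reads only the spread among libraries of the same group, in the main fit estimated over all 4 groups together. That spread may be technical, and for the members it was widest in FK228 libraries, as described below.

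A ribosome joins ribosomal RNA with 1 copy of most ribosomal proteins, and cells make these proteins from some of their most abundant mRNAs. The mRNAs typically begin with a C followed by a run of pyrimidines, the 5' terminal oligopyrimidine tract, through which mTOR signalling and Larp1 control their translation and stability. Loss of single members is known in humans from Diamond-Blackfan anaemia, and free RPL5 and RPL11 bind MDM2 when ribosome assembly is disturbed. The comparisons asked how the RNA of this gene set stood after HDAC inhibition, after YF overexpression and after both.

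Libraries held 23664446 to 26122998 estimated counts. Hdac1 RNA, the class I HDAC gene taken as a check of the labels, averaged 110 ± 3.3 CPM (counts scaled to library size) in FK228 cells, 402 ± 18.9 in YF cells and 798 ± 2.16 in FK228+YF cells, against 97.7 ± 5.14 in control cells (SD, n = 3 each). Of 10 hepatocyte markers, 7 had over 1 CPM, and their summed level was 2933 to 3094 CPM in FK228, 3154 to 3179 in YF and 1970 to 2430 in FK228+YF libraries, against 3293 to 3525 in control libraries. Of the 9 tested, 2 rose and 6 fell in FK228, 1 and 4 in YF, and 1 and 7 in FK228+YF, each versus control by edgeR's test. The 4 cholangiocyte and progenitor markers in the table summed to 5093 to 5736 CPM in FK228, 5551 to 5824 in YF and 4340 to 5131 in FK228+YF libraries, against 4794 to 4965 in control libraries. Single markers mostly fell: versus control, edgeR's test called 1 of 4 higher and 3 lower in FK228 and in YF, and 0 and 3 in FK228+YF. Their median log2 fold changes were -0.46 in FK228, -0.45 in YF and -1.16 in FK228+YF. Of all tested genes, 33.2% rose and 35.5% fell in FK228, 18.0% and 14.6% in YF, and 38.8% and 38.6% in FK228+YF. Summed macrophage and leukocyte markers were at 21.01 to 26.8 CPM in FK228, 7.44 to 9.78 in YF and 48.7 to 57.6 in FK228+YF libraries, against 3.83 to 4.2 CPM in control libraries, and 2 of those 5 markers passed 1 CPM. Of the 3 tested, 2 were called higher in FK228, 1 in YF and 1 in FK228+YF, and none lower, so these sums do not stand for all of the markers. Summed stellate and fibroblast markers were at 30.4 to 31.5 CPM in FK228, 12.6 to 18.7 in YF and 32.2 to 40.004 in FK228+YF libraries, against 7.7 to 10.4 in control libraries. Of the 3 of them tested, 2 were called higher in FK228, 1 in YF and 3 in FK228+YF, and none lower. None of 5 endothelial markers reached 1 CPM. The part of these shifts in the values of the ribosomal protein genes was not tested, and in bulk RNA fewer cells of a type cannot be told apart from less RNA per cell.

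RefSeq promoters of GRCm38.p6 (250 bases before to 50 after the annotated start) matched 56 of the 76 genes. The ETS core CCGGAAG, read on both strands like all motifs here, stood in 41.1% of these 56 promoters, 9.93% of 27025 promoters of all genes and 19.3% of the 10651 promoters of tested genes. The GC box GGGCGG stood in 60.7% of member promoters and 66.0% of those of tested genes, the YY1 core AAGATGG in 16.1% and 8.18%, the TATA box TATAAA in 10.7% and 9.31%, the E-box CACGTG in 10.7% and 11.3%, and the palindrome TCTCGCGAG in 12.5% and 1.6%. A C followed by at least 4 pyrimidines on the sense strand, within 10 bases before to 12 bases from the start, stood in 57.1% of member promoters, against 33.9% of those of tested genes. These matches describe letters in a window and show no binding.

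5 promoters are printed 5' to 3', for members called in opposite directions, against the set as a whole, in the FK228 response described below. Rps10, Rplp2 and Rpl38 gained in FK228 against the rest of the set, and Rps4x and Rpl15 lost. Scaled by the bulk of genes instead, Rpl15 was not called in FK228 versus control (log2 fold change -0.12 ± 0.08). Capitals mark the ETS core or its reverse complement CTTCCGG, the GC box or its reverse complement CCGCCC, and the pyrimidine run at the start. The stretches are Rps10 at chr17:27635195-27635494 on the minus strand, Rplp2 at chr7:141447401-141447700 on the plus strand, Rpl38 at chr11:114668330-114668629 on the plus strand, Rps4x at chrX:102189342-102189641 on the minus strand and Rpl15 at chr14:18270937-18271236 on the minus strand.
Rps10: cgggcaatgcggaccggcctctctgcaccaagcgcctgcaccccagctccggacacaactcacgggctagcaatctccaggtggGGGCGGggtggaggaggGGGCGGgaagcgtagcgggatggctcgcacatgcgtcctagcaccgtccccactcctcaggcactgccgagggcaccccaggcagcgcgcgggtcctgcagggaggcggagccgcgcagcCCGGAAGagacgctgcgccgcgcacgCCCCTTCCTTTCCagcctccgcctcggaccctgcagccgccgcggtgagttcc
Rplp2: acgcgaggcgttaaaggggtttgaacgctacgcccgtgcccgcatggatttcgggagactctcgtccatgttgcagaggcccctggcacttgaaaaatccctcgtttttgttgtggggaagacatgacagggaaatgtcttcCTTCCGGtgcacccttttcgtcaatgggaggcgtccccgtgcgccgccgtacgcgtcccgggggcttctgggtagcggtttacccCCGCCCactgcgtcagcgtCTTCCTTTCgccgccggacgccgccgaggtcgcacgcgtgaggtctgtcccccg
Rpl38: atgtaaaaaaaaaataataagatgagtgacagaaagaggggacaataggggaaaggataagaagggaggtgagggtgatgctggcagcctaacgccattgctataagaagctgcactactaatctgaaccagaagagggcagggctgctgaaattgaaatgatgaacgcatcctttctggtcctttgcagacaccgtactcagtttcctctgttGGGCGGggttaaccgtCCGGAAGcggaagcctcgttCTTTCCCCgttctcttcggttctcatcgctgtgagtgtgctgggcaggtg
Rps4x: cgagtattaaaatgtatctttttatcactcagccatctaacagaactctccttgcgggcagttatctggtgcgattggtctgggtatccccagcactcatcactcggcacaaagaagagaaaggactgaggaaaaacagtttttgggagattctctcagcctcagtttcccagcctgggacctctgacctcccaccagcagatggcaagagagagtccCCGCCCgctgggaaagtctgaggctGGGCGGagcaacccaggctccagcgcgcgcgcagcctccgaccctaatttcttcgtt
Rpl15: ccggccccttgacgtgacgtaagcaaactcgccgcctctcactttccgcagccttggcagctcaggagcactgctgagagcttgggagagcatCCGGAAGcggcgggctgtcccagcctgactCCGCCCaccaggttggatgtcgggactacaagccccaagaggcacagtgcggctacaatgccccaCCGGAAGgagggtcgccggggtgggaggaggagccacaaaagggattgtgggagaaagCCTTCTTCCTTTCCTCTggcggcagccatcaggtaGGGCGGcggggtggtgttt
The ETS core occurred 2 times in the Rpl15 promoter and 1 time in those of Rps10, Rplp2 and Rpl38. The X-linked Rps4x had no ETS core and no pyrimidine run in its window. The longest run among these 5, 17 bases, stood in Rpl15.

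The genes lay on 19 chromosomes, with 14 on chromosome 7 and 4 on X. Among those described most, Rpl23 lies on chromosome 11 from 97777526 to 97782439, Rps10 on 17 from 27630415 to 27635244, Rplp2 on 7 from 141447651 to 141451359, Rplp0 on 5 from 115559467 to 115563729, Rps29 on 12 from 69157722 to 69159186 and Rps4x on X from 102184941 to 102189391 (GRCm38.p6). Per length, the set filled most of the top of the expression range: 31 of the 50 genes highest in deposited TPM were members, as were 56 of the top 100 and 70 of the top 200. The highest mean over all 12 libraries was that of Rpl41 at 14568 TPM, a very short basic protein, and Rps26, Rpl38, Rpl28 and Rpl23a followed with 12438, 10388, 9627 and 9439 TPM. At the other end stood Rps6, the substrate of S6 kinase, at 38.1 TPM, Rpl34 at 71.8, Rps15a at 203, Rps20 at 292 and Rpl22 at 345 TPM. TPM depends on the transcript length assigned to a gene, and Rps15a and Rps20 were not low in counts. They averaged 888 and 899 CPM in control libraries, where Rps21 had 794 CPM and 4470 TPM. In all, 70 members passed 500 TPM in every library.

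The low ranks of Rps6 and Rpl34 coincided with high counts at like-named pseudogenes in the same table. Rps6 held 755 to 1182 counts per library and Rps6-ps4 27508 to 34203, so that 96.8% of the counts of both were assigned to the pseudogene. Rpl34 held 458 to 630 counts and Rpl34-ps1 11346 to 20955, or 96.6% for the pseudogene. Rpl31-ps12 took 26.97% of the counts it shared with Rpl31. Reads of these near-identical copies can be split in counting, so the levels and changes of Rps6, Rpl34 and Rpl31 are uncertain. The numbers of called members below rest on the own counts of these genes. With pseudogene counts added, the call of Rpl34 in FK228 versus control ended (log2 fold change 0.24 to 0.13), as did that of Rps6 in YF versus control (-0.26 to -0.11). Rpl34 was then called lower in YF versus control (-0.06 to -0.45).

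Summed over the set, the members took 13.7, 12.6 and 11.3% of all counts in FK228 libraries, 10.7, 11.4 and 10.98% in YF libraries and 11.5, 10.9 and 11.1% in FK228+YF libraries, against 11.9, 11.9 and 12.5% in control libraries. Both groups with YF lay below every control library, and the FK228 libraries spread across the control range. The share averaged 12.5 ± 1.19% in FK228, 11.04 ± 0.351% in YF and 11.2 ± 0.298% in FK228+YF, against 12.1 ± 0.366% in control (SD, n = 3 each). With 3 libraries a side the smallest exact two-sided p is 0.1, and no test is given for this sum.

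**Figure D1:**
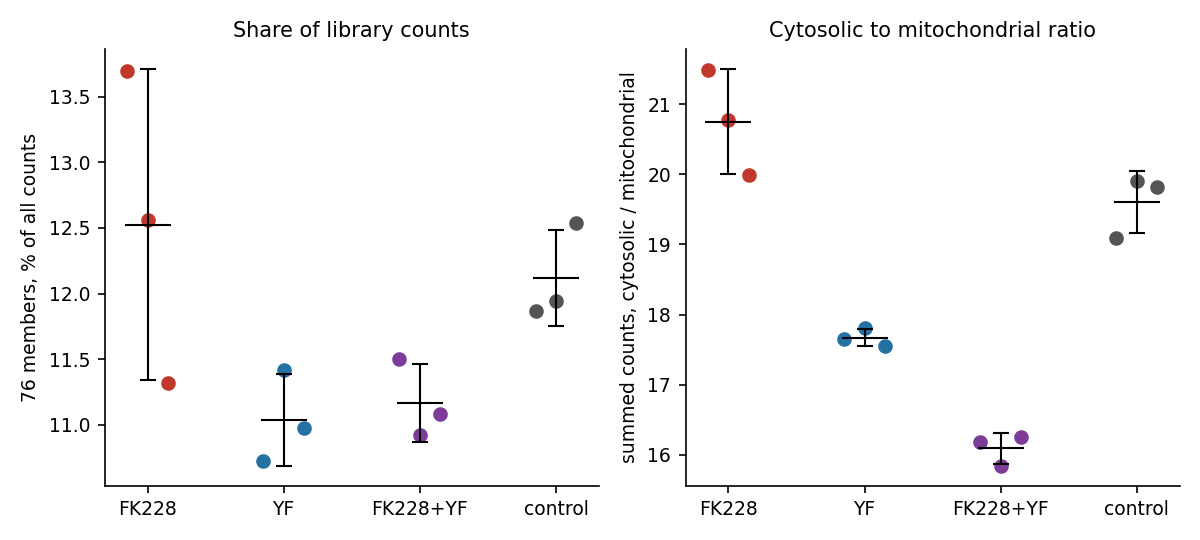
Left, summed counts of the 76 genes as a percentage of all counts of a library; right, their summed counts divided by those of 78 mitochondrial ribosomal protein genes. Points are libraries, lines means and bars SD (n = 3), and the axes do not start at 0. FK228 libraries spread between 11.3 and 13.7% on the left, and the 4 groups do not overlap on the right.

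The 3 FK228 libraries differed among themselves more than those of any other group. After TMM scaling, which sets library sizes by the bulk of genes, replicate 1 was the highest FK228 library for 72 of 76 members and replicate 3 the lowest for 76 of 76. Their median deviations from the group mean were 0.18, 0.01 and -0.17 (log2) for replicates 1, 2 and 3, while the median over all genes deviated by at most 0.01. The median coefficient of variation of a member was 11.98% in FK228, 5.47% in YF and 4.58% in FK228+YF, against 5.26% in control libraries. The deviation was related to transcript length across the 76 members (r = -0.45 in replicate 1 and 0.58 in replicate 3 with log2 effective length), and among the 3318 shortest other genes replicates 1 and 3 deviated by 0.08 and -0.07. The 188 other genes at 500 CPM or more deviated by 0.04 and -0.03. The part of this spread in the FK228 results was not tested, and counts that an FK228 library moved by over 1.5 times are also given without it.

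**Figure D2:**
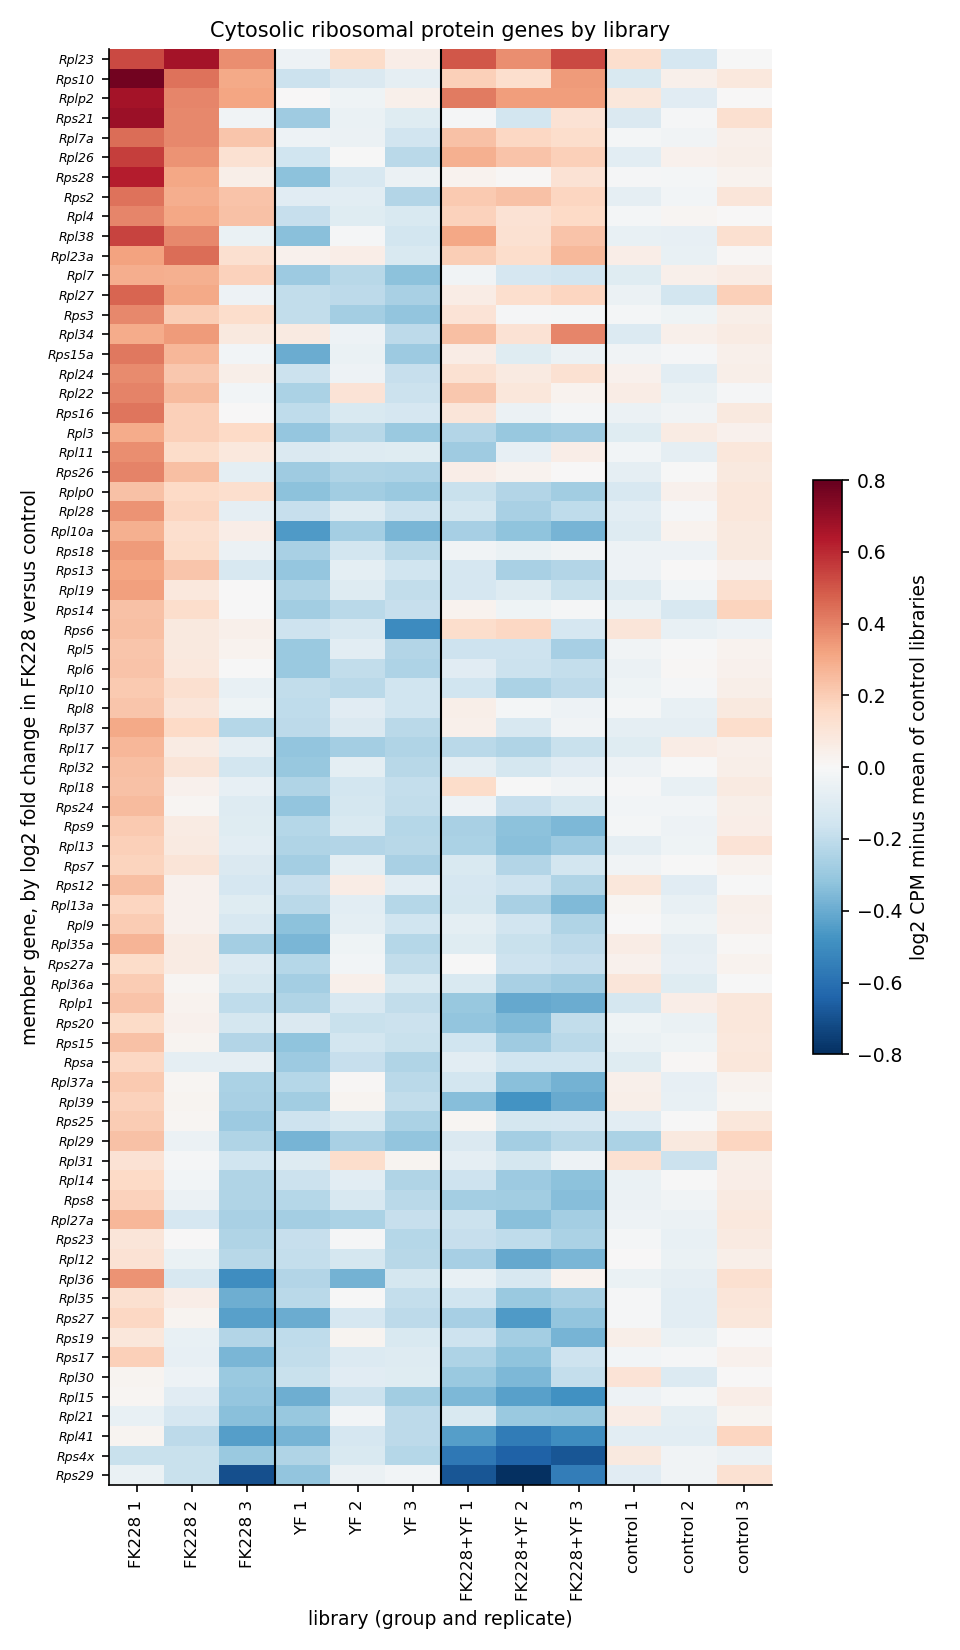
log2 CPM of 73 members (rows, ordered by change in FK228 versus control) in each of the 12 libraries (columns), minus the mean of the control libraries. Red is higher and blue lower than control; the FK228 columns pale between replicates 1 and 3, and Rps29 and Rps4x form the darkest blue block in FK228+YF.

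In FK228 versus control cells the set moved little and unevenly. By edgeR's quasi-likelihood test 22 of 76 members rose, Rps4x fell and 53 did not pass the test, against 33.2% of all 13346 tested genes called higher and 35.5% called lower. The median change was 0.07 (log2), with -0.02 over all genes, and members ranged between -0.29 and 0.52. In the small subunit 8 of 30 rose and in the large subunit 14 of 46 did. With upper-quartile scaling 35 rose and none fell, and with total counts 17 rose and 6 fell.

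Among small-subunit genes, Rps10, which sits on the head of the subunit, had 2022, 1601 and 1463 CPM in FK228 libraries, against 1087, 1216 and 1257 CPM in control libraries. The groups did not overlap, and Rps10 rose by 0.51 ± 0.10 (log2 fold change ± SE, adjusted p = 9.25e-05, edgeR). Rps2, a protein of the mRNA entry channel, had 4360, 3954 and 3784 CPM in FK228 and 3071, 3183 and 3456 in control libraries, a rise of 0.32 ± 0.07 (adjusted p = 0.000715, edgeR). Rps28, near the mRNA exit, rose by 0.35 ± 0.11, with 2343, 1878 and 1566 CPM in FK228 and 1503, 1495 and 1544 in control libraries. All 3 FK228 libraries were above every control library for these genes, by the narrowest margin in Rps28. Rps3, which neighbours Rps2 at the entry channel, rose by 0.24 ± 0.07. Rps7, whose human counterpart is mutated in Diamond-Blackfan anaemia, had 1169, 1109 and 952 CPM in FK228 and 1012, 1031 and 1054 in control libraries, and its change of 0.06 ± 0.07 did not pass the test (adjusted p = 0.48, edgeR).

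Among large-subunit genes, Rpl23, which lies at the face towards the small subunit, had 429, 472 and 385 CPM in FK228 libraries and 327, 271 and 298 in control libraries. It rose by 0.52 ± 0.08 (adjusted p = 7.08e-06, edgeR), with every FK228 library above every control library. The acidic stalk, which recruits elongation factors, is made of Rplp0, Rplp1 and Rplp2, and its genes differed. Rplp2 had 2185, 1811 and 1720 CPM in FK228 and 1467, 1294 and 1383 in control libraries and rose by 0.46 ± 0.08. Rplp0 had 4152, 3944 and 3875 CPM in FK228 and 3232, 3620 and 3765 in control libraries, a rise of 0.17 ± 0.07 (adjusted p = 0.0331, edgeR) that did not pass the test without control replicate 1 (log2 fold change 0.11), with total-count scaling (0.12) or in a fit of the compared groups only (0.21). Rplp1 had 2673, 2320 and 1978 CPM in FK228 and 2066, 2362 and 2422 in control libraries, and its change of 0.03 ± 0.09 did not pass. Rpl7a (0.36 ± 0.07), Rpl26 (0.35 ± 0.09), which lies at the rim of the exit tunnel, and Rpl4 (0.31 ± 0.06), which reaches into that tunnel, also rose with groups apart. Of the 5S RNA partners Rpl11 rose by 0.20 ± 0.08, with overlapping groups and a call that ended with total-count scaling (0.15) and without FK228 replicate 1 (0.13) or control replicate 1 (0.19) or 2 (0.17), and Rpl5, at 0.11 ± 0.07, did not pass.

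Rps4x was the single member called lower, with 1356, 1359 and 1247 CPM in FK228 and 1620, 1503 and 1485 in control libraries (-0.22 ± 0.07, adjusted p = 0.00558, edgeR). Its fall did not pass the test under upper-quartile scaling (-0.13) or in a fit of the compared groups only (-0.18). Without FK228 replicate 1, 14 members rose and 9 fell, and without FK228 replicate 3, 36 rose and 1 fell; without control replicate 1, 14 rose and 2 fell.

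In YF versus control cells most members had log2 fold changes below 0, and 22 of 76 passed the test. All 22 fell and none rose by edgeR's test, against 14.6% of all tested genes called lower and 18.0% called higher. DESeq2 called 37 lower and none higher, while total-count scaling left 13 falls. Without adjustment, 40 members had p under 0.05 in either direction by edgeR's test. Throughout, counts at unadjusted p, by DESeq2 or limma-voom, or by upper-quartile or total-count scaling stand without a share of all genes. The same holds for counts with a library left out, in a fit of the compared groups only, with other filters or with the replicate number as a block. All these counts are therefore not set against a background. The sign was negative for 73 members, the median change -0.18 against 0.01 over all genes, and the range -0.37 to 0.05. Of the small subunit 10 of 30 fell, and of the large subunit 12 of 46.

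Rpl10a, the protein of the mobile stalk by the tRNA exit site, had 738, 835 and 783 CPM in YF libraries and 941, 1029 and 1065 in control libraries. Each YF library was below each control library, and Rpl10a fell by 0.37 ± 0.07 (log2 scale, adjusted p = 0.000507, edgeR). Rplp0 had 2814, 2912 and 2880 CPM in YF and 3232, 3620 and 3765 in control libraries, so that it fell by 0.30 ± 0.07 on the log2 scale (adjusted p = 0.00218, edgeR). Rpl3, which borders the peptidyl transferase centre, had 1143, 1213 and 1153 CPM in YF and 1326, 1481 and 1448 in control libraries (-0.28 ± 0.06), and Rpl7 had 1597, 1672 and 1553 in YF and 1824, 2004 and 2029 in control libraries (-0.28 ± 0.07). In these 3 genes too the groups did not overlap. Rps7 had 855, 979 and 864 CPM in YF and 1012, 1031 and 1054 in control libraries, and its fall (-0.20 ± 0.07, adjusted p = 0.0443, edgeR) did not pass without YF replicate 1 (-0.16), YF replicate 3 (-0.17), control replicate 2 (-0.20) or control replicate 3 (-0.18), nor without FK228+YF replicate 1 or 3 (-0.20 each). It also missed the threshold with upper-quartile (-0.18) or total-count scaling (-0.15) and with a stricter filter (-0.19).

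Further members called lower with groups apart included Rpl29 (-0.33 ± 0.11), Rpl15 (-0.28 ± 0.08) and Rpl17 (-0.28 ± 0.08). The call of Rpl15 ended without YF replicate 1 (-0.22), while Rpl29 lost its call without any of the YF libraries (-0.30, -0.35 and -0.32 without replicates 1, 2 and 3) or without control replicate 2 or 3 (-0.29 and -0.24), and with no filter (-0.34). Rpl23 (0.05 ± 0.08) and Rplp2 (0.00 ± 0.08) did not pass the test. The number of falling members was 10 without YF replicate 1, 10 without YF replicate 3, 12 without control replicate 2 and 9 without control replicate 3, and it was 41 and 40 without FK228 replicates 1 and 3, which share the estimate of spread.

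In FK228+YF versus control cells the set split. 9 of 76 members rose and 35 fell by edgeR's test, against 38.8% of all tested genes called higher and 38.6% called lower. With upper-quartile scaling 11 rose and 15 fell. The median was -0.16 against 0.01 over all genes, and the range, -0.70 to 0.46, was the widest of the comparisons with control. Falls were 13 of 30 in the small and 22 of 46 in the large subunit.

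Rpl23 had 421, 385 and 430 CPM in FK228+YF libraries and 327, 271 and 298 in control libraries, a rise of 0.46 ± 0.08 (adjusted p = 2e-05, edgeR). Rplp2 had 1841, 1743 and 1737 CPM in FK228+YF and 1467, 1294 and 1383 in control libraries and rose by 0.36 ± 0.08. In both genes each FK228+YF library exceeded each control library. Rps2 (0.20 ± 0.07), Rpl23a (0.20 ± 0.08), Rpl26 (0.23 ± 0.09), Rps10 (0.22 ± 0.09) and Rpl7a (0.18 ± 0.07) also rose, at adjusted p between 0.0163 and 0.0413 (edgeR). In the fits below their log2 fold changes stayed between 0.15 and 0.24, but each call ended when certain single libraries were left out. That of Rps2 ended without FK228+YF replicate 2 (0.19) or control replicate 1 (0.16) or 2 (0.19), and that of Rpl23a without FK228+YF replicate 1 (0.20) or 3 (0.17) or control replicate 2 (0.16) or 3 (0.20). Rpl26 lost its call without FK228+YF replicate 1 (0.20) or control replicate 1 (0.19), and Rpl7a without FK228+YF replicate 1 (0.15) or control replicate 2 (0.16). Rps10 lost its call without FK228+YF replicate 1 (0.24) or 3 (0.16), control replicate 1 (0.16) or 2 (0.23) or any YF library (0.22), and with no filter on low counts (0.20). Rpl34 rose by 0.25 ± 0.09 in its own counts, but with the counts of its pseudogene added it fell (-0.43), and its direction is therefore not given. The number of rises was 4 without FK228+YF replicate 1, 5 without FK228+YF replicate 3 and 4 without control replicate 1 or 2.

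Rps29, a zinc-binding protein of the small subunit head, had 368, 323 and 403 CPM in FK228+YF libraries and 555, 580 and 644 in control libraries. It was the member with the lowest log2 fold change, -0.70 ± 0.15 (adjusted p = 0.00132, edgeR). Rps4x had 1034, 981 and 953 CPM in FK228+YF and 1620, 1503 and 1485 in control libraries (-0.63 ± 0.07, adjusted p = 1.47e-08, edgeR). For Rps29 and Rps4x the groups lay far apart relative to their spread. Rpl41 had 2877, 2642 and 2763 CPM in FK228+YF and 3671, 3680 and 4389 in control libraries (-0.50 ± 0.10). Rpl15 (-0.43 ± 0.08), Rpl39 (-0.41 ± 0.09), a short protein of the exit tunnel, and Rplp1 (-0.37 ± 0.09) followed, as did Rps27 (-0.35 ± 0.12), whose call ended without FK228+YF replicate 2 (-0.29) or control replicate 3 (-0.30) or with upper-quartile scaling (-0.26). Within the stalk, Rplp2 thus rose while Rplp1 and Rplp0 (-0.23 ± 0.07; not called with upper-quartile scaling, -0.14) fell. Without FK228+YF replicate 2, 23 members fell.

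**Figure D3:**
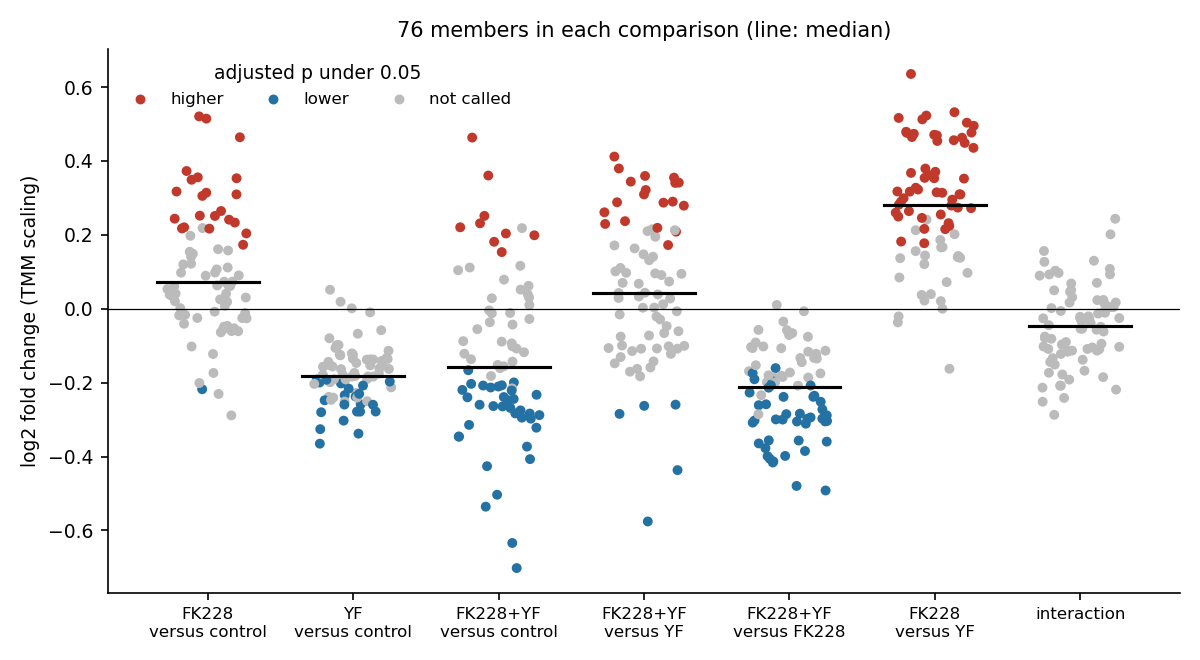
log2 fold change of each member (points) in the 7 comparisons, with TMM scaling; lines are medians, and red and blue mark members called higher and lower at adjusted p under 0.05. Points lie mostly below 0 in YF versus control and FK228+YF versus FK228, mostly above 0 in FK228 versus YF, and on both sides in FK228+YF versus control.

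FK228+YF versus YF compared cells with YF, with and without FK228. Hdac1 RNA also differed, at 402 ± 18.9 CPM in YF and 798 ± 2.16 in FK228+YF libraries (SD). A response to FK228 cannot be told apart here from one to a differing level of Hdac1 RNA. 19 members rose and 5 fell by edgeR's test, against 34.7% of all tested genes called higher and 35.9% called lower, with a median of 0.04 (0.00 over all genes). The 19 included Rps6 (0.32) and Rpl34 (0.31), which did not pass with the counts of their pseudogenes added (0.04 and 0.03). Rpl23 rose by 0.41 ± 0.08, with 421, 385 and 430 CPM in FK228+YF and 290, 330 and 309 in YF libraries. Rpl26 and Rplp2 (0.36 each), Rps2 and Rps10 (0.34 each) and Rpl27 (0.34 ± 0.10) also rose, and so did Rpl38 (0.38 ± 0.12), which lost its call without YF replicate 1 (0.29) or FK228+YF replicate 1 (0.33) or with no filter (0.37). Among the 5 members that fell were Rps29 (-0.58 ± 0.15), Rps4x (-0.44 ± 0.07), Rpl41 (-0.26 ± 0.10) and Rpl39 (-0.26 ± 0.09). Of the 5, Rps29 and Rps4x alone were called under each of 5 scalings. Without YF replicate 2 Rpl41 (-0.21) and Rpl39 (-0.17) lost their calls, as they did without FK228+YF replicate 2 (-0.22 and -0.21), and Rpl41 also without YF replicate 3 (-0.26) or FK228+YF replicate 3 (-0.27). In all, 2 members fell without YF replicate 2 or FK228+YF replicate 2, against 8 and 10 without FK228 replicates 1 and 3; 2 fell with upper-quartile scaling, 12 with total counts or in a fit of the compared groups only and 9 with no filter.

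FK228+YF versus FK228 compared FK228-treated cells with and without YF. Hdac1 RNA was higher in FK228+YF than in YF, so this comparison and YF versus control may not stand for the same level of YF. 42 members fell and none rose by edgeR's test, against 26.3% of all tested genes called lower and 26.6% called higher, none was called higher by DESeq2 either, and 50 members had an unadjusted p under 0.05. The median was -0.21 (0.00 over all genes), and 75 of 76 signs were negative. Rpl3 fell by 0.49 ± 0.06 on the log2 scale, with 1204, 1149 and 1164 CPM in FK228+YF and 1744, 1617 and 1585 in FK228 libraries. Rpl10a (-0.48 ± 0.07), Rps4x (-0.42 ± 0.07), Rplp0 (-0.41 ± 0.07), Rplp1 (-0.40 ± 0.09) and Rps9 (-0.38 ± 0.07) fell with groups apart as well. Without FK228 replicate 1, 23 members fell, and without FK228 replicate 3, 66.

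FK228 versus YF, the direct comparison of the single treatments, had the most calls: 52 members were higher in FK228 and none lower by edgeR's test, against 27.8% of all tested genes called higher and 33.3% called lower. Unadjusted, 54 members had p under 0.05, and DESeq2 called none lower. The median was 0.28 against -0.04 over all genes. Rps10 differed by 0.64 ± 0.10, with 2022, 1601 and 1463 CPM in FK228 and 1053, 1093 and 1128 in YF libraries. Rplp0 had 4152, 3944 and 3875 CPM in FK228 and 2814, 2912 and 2880 in YF libraries (0.48 ± 0.07), Rpl7 differed by 0.53 ± 0.07, Rpl10a by 0.52 ± 0.07, Rps3 by 0.50 ± 0.07 and Rpl3 by 0.50 ± 0.06. In each of these 6 genes every FK228 library was above every YF library. Without FK228 replicate 3, 68 members were higher in FK228.

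The interaction asked whether the difference between FK228+YF and YF differed from that between FK228 and control. The higher Hdac1 RNA in FK228+YF than in YF enters it too, and its part was not tested. No member was called in either direction by edgeR's test, against 11.1% of all tested genes called higher and 15.3% called lower; 2 members had an unadjusted p under 0.05, and DESeq2 called 2 lower. Member estimates ranged between -0.29 and 0.24. Without FK228 replicate 3, 8 members were called lower, without FK228 replicate 1, 1 was called higher, and without control replicate 1, 1 was called lower.

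The set held between 10.7 and 13.7% of all counts and its changes were small, and the number of calls depended on how libraries were scaled. Over TMM, TMM without the members, RLE, upper-quartile and total-count scaling, the member median ranged between 0.02 and 0.16 for FK228 versus control, -0.20 and -0.13 for YF versus control, -0.16 and -0.07 for FK228+YF versus control, 0.00 and 0.11 in FK228+YF versus YF, -0.22 and -0.15 in FK228+YF versus FK228, and 0.18 and 0.35 in FK228 versus YF. A scaling shifts all genes of a comparison by about the same amount, so the distance of the member median from that of all genes does not depend on it by construction; with TMM this distance was 0.09 for FK228 versus control, -0.19 for YF versus control, -0.16 for FK228+YF versus control and 0.32 for FK228 versus YF. Total-count scaling moved the all-gene median in FK228 versus YF to -0.14, and with it 33.5% of all calls were higher, against 45.5% with TMM. In YF versus control 69.4% of all calls were higher with total counts, against 55.2% with TMM.

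Calls common to the 5 scalings were fewer. 17 members rose in FK228 versus control, among them Rpl23, Rps10, Rplp2, Rpl7a, Rps28, Rps2, Rps3 and Rpl3, and none fell in all 5, against 30.1% of all tested genes that rose and 29.9% that fell in all 5. 13 fell in YF versus control (9.89% of all genes), among them Rpl10a, Rplp0, Rpl3, Rpl7 and Rpsa. In FK228+YF versus control 9 rose (38.7% of all genes), including Rpl23 and Rplp2, and 15 fell (34.4% of all genes), including Rps29, Rps4x, Rpl41 and Rpl15. The 9 also include Rpl34 by its own counts, which fell with the counts of its pseudogene added. In FK228+YF versus FK228 30 fell (21.1% of all genes), and in FK228 versus YF 41 were higher (2802 of all 13346 genes).

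**Figure D4:**
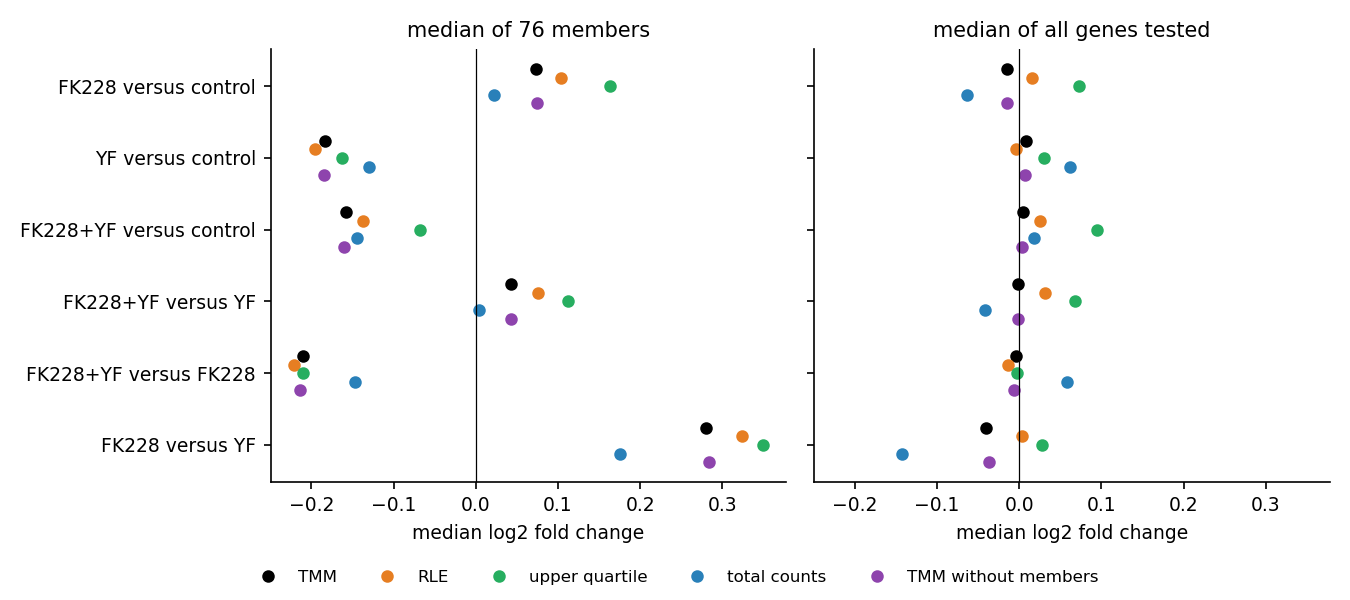
Left, median log2 fold change of the 76 members under 5 ways of scaling library sizes; right, the median of all genes tested. Rows are comparisons and colours scalings. The left medians shift with the scaling, by up to the span between 0.18 and 0.35 in FK228 versus YF, and those of all genes shift by about as much in the same direction.

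To see changes within the set free of its overall level, libraries were scaled by the summed counts of the members themselves. A log2 fold change is then relative to the ribosomal protein genes as a whole, and a gene can gain in this sense while its CPM does not rise. On this scale the median of all genes moved to -0.10 for FK228 versus control, 0.20 for YF versus control, 0.14 for FK228+YF versus control, 0.22 in FK228+YF versus FK228 and -0.32 in FK228 versus YF. Of all calls, 91.2% were then higher in YF versus control, 81.3% in FK228+YF versus FK228 and 17.1% in FK228 versus YF, against 55.2, 50.2 and 45.5% with TMM. In FK228 versus control 13 members gained and 8 lost by edgeR's test, against 24.1% and 36.3% of all genes on this scale. Rpl23 (0.43 ± 0.09), Rps10 (0.41 ± 0.08), Rplp2 (0.36 ± 0.07), Rps21 (0.26 ± 0.09) and Rpl7a (0.26 ± 0.07) gained most. Among the 8 that lost were Rps29 (-0.40 ± 0.09), Rps4x (-0.31 ± 0.08), Rpl41 (-0.30 ± 0.07) and Rpl21 (-0.27 ± 0.07). Of the members named here, Rps29, Rpl41 and Rpl21 were not called with TMM.

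In FK228+YF versus control 19 gained and 13 lost (41.6% and 29.4% of all genes), led by Rpl23 (0.59 ± 0.09) and Rplp2 (0.49 ± 0.07) and, at the other end, Rps29 (-0.57 ± 0.09) and Rps4x (-0.51 ± 0.08). YF versus control showed few shifts within the set: 3 gained (29.8% of all genes) and none lost (2.88% of all genes; none by the test with the replicate block either), with 3 members lower when control replicate 1 was left out. These 3 gains, Rpl23 (0.24 ± 0.09), Rpl31 (0.20 ± 0.08) and Rplp2 (0.19 ± 0.07), were at adjusted p = 0.0479, 0.0417 and 0.0473 (edgeR) and numbered 0 without YF replicate 1 or 3, control replicate 2 or 3, FK228 replicate 2 or any FK228+YF library, and 1 without YF replicate 2. The gain of Rpl31 is uncertain: with TMM its change moved from 0.02 to -0.12 once the counts of Rpl31-ps12 were added. In FK228+YF versus FK228 2 gained (Rpl36 and Rpl18) and 5 lost (Rpl3, Rpl10a, Rps4x, Rplp0 and Rplp1), of 39.1% and 8.97% of all genes. These losses numbered 2 without FK228+YF replicate 1 or 3, 3 without FK228 replicate 2, YF replicate 3 or FK228+YF replicate 2, and 8 without FK228 replicate 3. The gains numbered 0 without FK228 replicate 2 or FK228+YF replicate 1, 4 without FK228 replicate 3, and 1 without YF replicate 3, FK228+YF replicate 2 or 3, or control replicate 1 or 2.

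In FK228 versus YF 16 gained and 13 lost against the members' total (10.5% and 50.6% of all genes), with Rps10 (0.34 ± 0.08), Rpl7 (0.25 ± 0.07) and Rpl10a (0.24 ± 0.07) at 1 end and Rps29 (-0.46 ± 0.09), Rpl31 (-0.32 ± 0.08) and Rps4x (-0.30 ± 0.08) at the other. The size of the Rpl31 loss is uncertain, since with TMM its change moved from -0.04 to 0.15 once its pseudogene's counts were added. Gains numbered 9 without FK228 replicate 2, 7 without YF replicate 2 and 8 without YF replicate 3. The interaction again had no member called in either direction, against 5.38% and 6.93% of all genes.

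FK228 versus control and FK228+YF versus YF share no library. Across the 76 members their log2 fold changes relative to the members' total correlated with r = 0.83, as did those with TMM scaling (r = 0.83); members are not independent replicates, and points share libraries, so this is a description, and over all 13346 tested genes r was 0.81. In FK228+YF versus YF 15 gained and 15 lost against the members' total, against 27.5% and 34.9% of all genes. Called higher in both were 9 members, among them Rpl23, Rpl26, Rpl38, Rpl4, Rpl7a, Rplp2, Rps10 and Rps2, which are 69.2% of the 13 in FK228 versus control and 60% of the 15 in FK228+YF versus YF; of all genes called higher in FK228 versus control 76.7% were also higher in FK228+YF versus YF. Called lower in both were 6 members, among them Rpl15, Rpl30, Rpl41, Rps29 and Rps4x, which are 75% of the 8 and 40% of the 15, where 78.7% of all genes called lower in FK228 versus control were lower in both. These shares and correlations of the members were close to those of all genes. No member was called in opposite directions. YF versus control and FK228+YF versus FK228, which also share no library, correlated with r = 0.38 across members and 0.56 over all genes. Against the members' total, which holds the members as a set near 0 by construction, no member was called in both in either direction. On that scale 20.4% of all genes were higher and 1.54% lower in both, against 10.6% and 10.3% with TMM. With TMM 15 members fell in both, 68.2% of the 22 and 35.7% of the 42, where 70.5% of all genes called lower in YF versus control also fell in FK228+YF versus FK228.

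**Figure D5:**
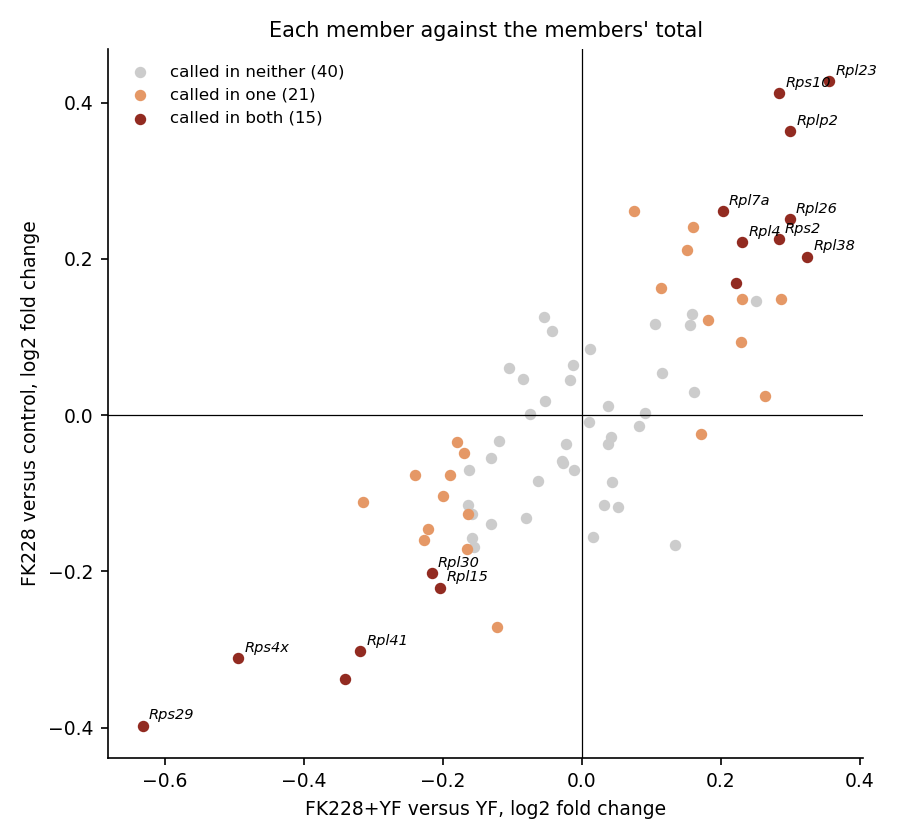
Change of each member relative to the members' total in FK228 versus control (vertical, log2) and in FK228+YF versus YF (horizontal, log2), 2 comparisons with no library in common. Colours mark members called in both (15), 1 (21) or neither (40); Rps29, Rps4x and Rpl41 lie at the lower left and Rpl23, Rps10 and Rplp2 at the upper right.

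The ratio of the cytosolic set to the ribosomal protein genes of mitochondria separated all 4 groups, and both of its terms moved. The ratio of summed counts of the 76 genes to those of 78 nuclear genes of mitochondrial ribosomal proteins, which needs no library scaling, was 19.99 to 21.5 in FK228, 17.6 to 17.8 in YF and 15.8 to 16.3 in FK228+YF libraries, against 19.1 to 19.9 in control libraries. Its mean log2 ratio differed from control by 0.08 in FK228, -0.15 in YF and -0.28 in FK228+YF, and groups did not overlap in any of the 6 comparisons. The FK228 difference was 0.06 without FK228 replicate 1 and 0.11 without FK228 replicate 3. Between FK228+YF and YF the mean log2 ratio differed by -0.14, although the median change of the cytosolic members was 0.04. The median of the mitochondrial genes there was 0.12, with 33 of 78 called higher and 14 lower, against 34.7% and 35.9% of all tested genes. Of the 78 mitochondrial genes 16 rose and 30 fell in FK228 versus control, 4 rose and 9 fell in YF versus control, and 33 rose and 25 fell in FK228+YF versus control (medians -0.10 in FK228, -0.04 in YF and 0.10 in FK228+YF). In the interaction 33 of the 78 were called higher and 1 lower, against 11.1% and 15.3% of all tested genes, and no cytosolic member was called. For these lists and those that follow, the shares of all tested genes called higher and lower were 33.2% and 35.5% in FK228, 18.0% and 14.6% in YF and 38.8% and 38.6% in FK228+YF, each versus control.

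Of 65 ribosome assembly genes 11 rose and 34 fell in FK228 versus control (16.9% and 52.3% of the list, against 33.2% and 35.5% of all genes; median log2 fold change -0.21), the falls including Dkc1 (-1.18 ± 0.11), the pseudouridine synthase of box H/ACA particles, Nop56 (-0.91 ± 0.10), a core protein of box C/D particles, and Utp20 (-0.93 ± 0.11). In YF versus control 9 rose and 2 fell (13.8% and 3.08%, against 18.0% and 14.6%; median 0.07), with Rrp12 (0.51 ± 0.10) and Bysl (0.48 ± 0.08) among the rises, and in FK228+YF versus control 24 rose and 22 fell (median 0.04). Of 16 chaperones and importins of ribosomal proteins 2 rose and 10 fell in FK228 versus control and in FK228+YF versus control alike, and 1 rose and 1 fell in YF versus control (medians -0.21 in FK228, 0.05 in YF and -0.22 in FK228+YF). Bccip, whose yeast counterpart is the chaperone of Rpl23, changed by -0.55 ± 0.08 with FK228 and Tsr2, which escorts Rps26, by -0.48 ± 0.13. Of 15 RNA polymerase I genes 2 rose and 5 fell with FK228, 1 rose and 1 fell with YF, and 5 rose and 5 fell with both (medians -0.03, 0.04 and -0.08 in FK228, YF and FK228+YF). Ubtf, the upstream binding factor of ribosomal DNA, changed by -1.31 ± 0.06 in FK228, -0.31 ± 0.05 in YF and -1.89 ± 0.06 in FK228+YF, each versus control.

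Of 42 genes of translation factors and related proteins, several of whose mRNAs also carry the pyrimidine tract, 15 rose and 11 fell in FK228 versus control (35.7% and 26.2%, against 33.2% and 35.5% of all genes), 5 rose and 6 fell in YF versus control, and 13 rose and 16 fell in FK228+YF versus control (medians 0.03 in FK228, -0.04 in YF and -0.07 in FK228+YF). Tpt1 rose by 1.12 ± 0.07 and Eef2, the translocase, by 0.67 ± 0.07 in FK228, while Eif4g2 changed by -0.69 ± 0.07. Of 20 genes of mTOR signalling and control of these mRNAs 3 rose and 6 fell with FK228, 4 rose and 6 fell with YF, and 11 rose and 6 fell with both (medians 0.05, -0.04 and 0.18 in FK228, YF and FK228+YF). Eef2k, the kinase that inhibits Eef2, changed by -0.60 ± 0.08, -0.47 ± 0.08 and -1.32 ± 0.09 in FK228, YF and FK228+YF versus control. Of 11 factors known from ribosomal protein promoters or general initiation 1 rose and 6 fell with FK228, 2 fell and none rose with YF, and 2 rose and 8 fell with both (medians -0.20, -0.07 and -0.38 in FK228, YF and FK228+YF). Gabpb2, a partner of the ETS factor Gabpa, changed by -0.91 ± 0.09 with FK228 and Nrf1 by -0.93 ± 0.08 with both, and Myc rose by 0.24 ± 0.08 with FK228 but fell by 0.52 ± 0.08 with both, each versus control (log2).

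Of 10 tested ribosomal protein genes and paralogs outside the naming pattern, 2 rose and 2 fell in FK228 versus control, 1 fell and none rose in YF versus control, and 3 fell and none rose in FK228+YF versus control (medians 0.01 in FK228, -0.07 in YF and -0.13 in FK228+YF). Rack1, a scaffold on the small subunit, rose by 0.34 ± 0.07 in FK228 versus control and fell by 0.26 ± 0.07 in YF versus control (log2). Rpl22l1, a paralog of Rpl22, rose by 0.31 ± 0.09 in FK228 versus control, and Rps27l, a paralog of Rps27, changed by -0.46 ± 0.11 in FK228+YF versus control. The falls of Rps23rg1 and Rps27rt in FK228 versus control are uncertain, since reads may be split with Rps23 and Rps27.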

How the data were processed

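Total RNA of 12 libraries, 3 in each of 4 groups, was isolated with TRIzol and sequenced paired-end on BGISEQ, per the labels. The authors deposited expected counts (estimated counts per gene) without scaling them to library size, per the file headers; 16.6% are not whole. The authors also deposited TPM, used here for levels between genes, FPKM, used for effective lengths, and normalized counts (a scaled signal) that were not used, per the file headers. Per the submitters' processing notes, RSEM 1.2.12, HISAT2 2.0.4, Bowtie2 2.2.5 and DESeq2 1.4.5 were used with GRCm38.p6, in roles that the notes leave out. Annotation, strand and gene filters were not given in the sources used here.

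Counts were rounded, filtered with filterByExpr (13346 genes kept), scaled by TMM and fitted with edgeR's quasi-likelihood model (edgeR 4.0.16, limma 3.58.1, R 4.3.3), with 1 term per group over all 12 libraries and Benjamini-Hochberg adjustment over all genes at 0.05. CPM uses TMM library sizes. Alternatives were other scalings, the members' total as library size, other filters, DESeq2 1.42.0, limma-voom, compared groups only, the replicate number as a block and leaving out each library. Pseudogene counts added to their members, the left-out libraries and block on the members'-total scale and for the mitochondrial ratio were chosen after seeing the data. A test on counts simulated for FK228 versus control (13344 genes) changed 66, 69 and 65 randomly chosen genes by a log2 change of 0.5, 1 and 2. It called 77.3% of genes with a true log2 change of 0.5, 88.4% at 1 and 95.4% at 2, with 12 false calls. In the data 68.8% of all genes were called in FK228 versus control, far more than were changed there. The rates therefore do not give the share of true changes found among the members.

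The members and gene lists were chosen with earlier results of these data known. Named in each comparison were Rplp0, Rps7, up to 8 called members at each end whose groups do not overlap, up to 5 at each end on the members'-total scale, the 5 highest and lowest in TPM and up to 4 called genes per list; some members are not reported here by name. Rpl5, Rpl11, Rplp1, Rps3 and Rack1 were named for their roles, after their values were seen. No duplicate library was found: mean chi-squares between replicates were 3.65 to 22.6.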

Additional observations from a re-analysis of the deposited data

How the results depend on the processing

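Counts of called members moved with the scaling and with single libraries. With the members' total as library size, members higher numbered 13 for FK228 versus control, 3 for YF versus control, 19 for FK228+YF versus control, 2 in FK228+YF versus FK228 and 16 in FK228 versus YF; members lower numbered 8, 0, 13, 5 and 13 there, and 15 in FK228+YF versus YF. Directions that reversed on that scale were those of Rpl18 (0.19), Rpl36 (0.24) and Rps7 (0.000606) in FK228+YF versus FK228 and of Rpl21 (-0.28) and Rps7 (-0.0233) in FK228 versus YF. With pseudogene counts added, Rpl34 reversed to -0.43 in FK228+YF versus control. With upper-quartile scaling 35 rose and 0 fell in FK228 versus control, 15 fell in FK228+YF versus control and 2 in FK228+YF versus YF. With total counts 6 fell for FK228 versus control, 13 for YF versus control and 12 for FK228+YF versus YF. limma-voom called 3 lower in FK228 versus control; DESeq2 called 37 lower in YF versus control and 2 in the interaction. The fit of compared groups only called 0 lower in FK228 versus control and 12 in FK228+YF versus YF, and no filter gave 9 there. The causes of these shifts were not tested, beyond the change of scale itself.

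Leaving out 1 library gave 14 to 36 higher and 1 to 9 lower in FK228 versus control, 0 higher and 9 to 41 lower in YF versus control, 4 to 10 and 23 to 41 in FK228+YF versus control, 14 to 25 and 2 to 10 in FK228+YF versus YF, 0 and 23 to 66 in FK228+YF versus FK228, 42 to 68 and 0 in FK228 versus YF, and 0 to 1 and 0 to 8 in the interaction. On the members'-total scale the ranges were 0 to 4 higher and 0 to 3 lower in YF versus control, 0 to 4 and 2 to 8 in FK228+YF versus FK228, 7 to 16 higher in FK228 versus YF, and 0 to 1 each way in the interaction. For 84 named results, the alternatives gave 2014 values of single members. Of these, 1891 kept direction and side of the threshold, 101 lost a call, 16 gained one and 6 reversed. Most named members were chosen because they were called, so these values do not describe the whole set. Over all members, the sign flipped across the 5 scalings for 25 in FK228, 2 in YF and 9 in FK228+YF, each versus control. It flipped for 14 in FK228+YF versus YF, 5 in FK228+YF versus FK228, 10 in FK228 versus YF and 8 in the interaction.

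Replicate numbers did not pair libraries (correlations of deviations -0.21 to 0.09). With the replicate block 17 rose and 1 fell in FK228 versus control, 16 fell in YF versus control, 7 rose and 34 fell in FK228+YF versus control, 35 fell in FK228+YF versus FK228 and 48 were higher in FK228 versus YF. On the members'-total scale the block gave 0 higher in YF versus control and 3 lower in FK228+YF versus FK228. SEs of 0.06 to 0.17 (log2) for the members given limit which of the small changes 3 libraries a group can resolve.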
